A study of Rattus norvegicus with 18 samples.

Results

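Small RNA of the rat cerebral cortex at embryonic day 17 (E17), in late fetal life, was compared with that on the day of birth (P0). The comparison used 6 of the 18 libraries of the series: 2 sequencing runs of 1 E17 tissue sample and 2 runs of each of 2 P0 tissue samples, so that 3 of the 9 tissue samples entered. All came from Sprague Dawley rats that carried no treatment or transgene in the sources used here. The labels call the tissue somatosensory cortex, and the study describes dorsolateral cortex, mainly the somatosensory part, with subcortical tissue and meninges dissected away. The number of animals behind a sample was not given. Total RNA had been size-selected on a gel and sequenced by the Solexa technique. The P0 samples were biological replicates, whereas the 2 runs of a sample were technical replicates, so E17 had n = 1 and P0 had n = 2. The spread at E17 was therefore unknown.

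MicroRNAs (miRNAs) are short RNAs cut from hairpin precursors. Either arm of a hairpin can be kept, and the arms are named 5p and 3p. A mature miRNA recognizes messenger RNAs mainly through its seed, the bases 2 to 8 from its 5′ end, and lowers their translation or stability, so miRNAs with the same seed are grouped as a family. Between E17 and birth the rat cortex passes from late neurogenesis to the migration, outgrowth and early contacts of neurons, and gliogenesis begins. Among the best known miRNAs of this tissue are miR-124 and miR-128 of neurons, miR-9 of progenitors and young neurons, the miR-17-92 cluster of dividing cells, and the let-7 family, whose level increases as cells differentiate.

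The sequences on which the comparison turned are shown here, from RefSeq (build GRCr8), with the seed in capitals and the base U as in RNA. The first 4 share a seed, and all were lower at P0 on average.
rno-miR-92b-3p (chr2:176931663-176931684, minus strand): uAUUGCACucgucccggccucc
rno-miR-92a-3p (chr15:98588602-98588622, plus strand, 1 of 2 gene copies): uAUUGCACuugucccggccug
rno-miR-363-3p (chrX:137342788-137342808, minus strand): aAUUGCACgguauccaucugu
rno-miR-25-3p (chr12:22156652-22156673, minus strand): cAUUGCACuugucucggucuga
The next 3 share another seed, and were also lower at P0 on average.
rno-miR-148b-3p (chr7:136299930-136299951, plus strand): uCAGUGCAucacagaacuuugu
rno-miR-148a-3p (chr4:81664447-81664467, minus strand): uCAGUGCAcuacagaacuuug
rno-miR-152-3p (chr10:82329435-82329455, plus strand): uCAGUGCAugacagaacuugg
The last 6 had no seed in common, and are the miRNA with the largest difference below E17, followed by the 5 called higher at P0 in all 11 alternatives that kept the same level filter.
rno-miR-135a-3p (chr7:28499183-28499204, minus strand): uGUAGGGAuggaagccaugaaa
rno-miR-128-3p (chr13:42251933-42251953, plus strand, 1 of 2 gene copies): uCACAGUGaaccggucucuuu
rno-miR-138-5p (chr19:10680184-10680206, minus strand, 1 of 2 gene copies): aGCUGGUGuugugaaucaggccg
rno-miR-204-5p (chr1:229743493-229743514, plus strand): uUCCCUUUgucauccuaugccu
rno-miR-33-5p (chr7:115593957-115593977, plus strand): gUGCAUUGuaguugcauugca
rno-miR-344b-5p (chr1:124028549-124028570, minus strand, 1 of 3 gene copies): aGUCAGGCugcugguuauauuc

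The 6 libraries held between 6916489 and 14858820 clean reads, and a level was expressed in TPM, the share of a tag among the clean reads of its library, scaled to the same total in each. Of the reads, 87.1% to 89.4% fitted a known or candidate miRNA. Run 1 of P0 sample 1 stood apart. Over the 259 names tested, its log2 TPM correlated at r = 0.790 with run 2 of the same RNA and at r = 0.908 with run 1 of E17, while the 2 runs of P0 sample 2 correlated at r = 0.945 and those of E17 at r = 0.906. Run 2 of E17 was closer to run 2 of P0 sample 2 (r = 0.967) and of P0 sample 1 (r = 0.923) than to its own run 1, and 133 of the 259 names were at least 1 log2 unit apart between the E17 runs. These correlations are across names and describe the libraries. Tags of 18 and 19 nt took 34.6% of the reads of run 1 of P0 sample 1, against 16.2% to 23.0% in the other 5 libraries. The direction was therefore judged within each run, while the size of a difference was taken from TPM averaged over the runs of a sample. The main counts of names are also given without that library.

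A miRNA was called when P0 differed from E17 by at least 1 log2 unit on the log2(TPM + 1) scale, averaged over the P0 samples, and had the same direction in all 4 within-run differences. This is a rule of direction and size and not a test. Among 259 names with a mean of at least 10 TPM, 49 were called (18.9%), 18 of them higher at P0 (6.95%) and 31 lower (12%). With no requirement on size, 71 names (27.4%) had the same direction in all 4 differences, 22 higher (8.49%) and 49 lower (18.9%). Without run 1 of P0 sample 1 the rule called 72 names, 18 higher and 54 lower, and 42 of the 49 remained among them. With P0 sample 1 alone 57 names were called higher and 34 lower, and with P0 sample 2 alone 17 higher and 87 lower. The balance of directions thus depended on the P0 sample. These settings also left fewer within-run differences that had to agree. The 2 P0 samples differed from each other more than either did from E17, with a median size of 1.09 log2 units against 0.74 for P0 sample 1 and 0.90 for P0 sample 2. In 114 of the 259 names (44.0%) they were at least 1 log2 unit apart in the same direction in both runs, and this held for 91 names (35.1%) between E17 and P0 sample 1 and for 104 (40.2%) between E17 and P0 sample 2. Both of these comparisons share the E17 sample. In 37 of the 49 called names the mean difference was larger than the gap between the P0 samples, as it was in 80 of all 259 names (30.9%), and in 29 all 4 P0 libraries lay beyond both E17 libraries. Such a gap was present in 35 of all 259 names (13.5%), with P0 above in 13 (5.02%) and below in 22 (8.49%). The median difference of all names was -0.18, and scaling with TMM factors (trimmed mean of M-values) moved it to 0.04. With those factors 42 names were called, 20 higher and 22 lower, so that the share of higher names among the calls went from 36.7% to 47.6%. Of the 49 names, 34 were among these calls, and all 49 kept their direction. The 15 lost with those factors were let-7d-5p, let-7e-5p, miR-221-3p, miR-23a-3p, miR-23b-5p, miR-25-5p, miR-26b-5p, miR-30d, miR-31a-5p, miR-341, miR-3473, miR-450b-3p, miR-505-5p, miR-92b-5p and miR-99b-3p. Of the 66 names in the primer and nucleotide change lists of the study, 16 were called, 7 higher and 9 lower.

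**Figure D1:**
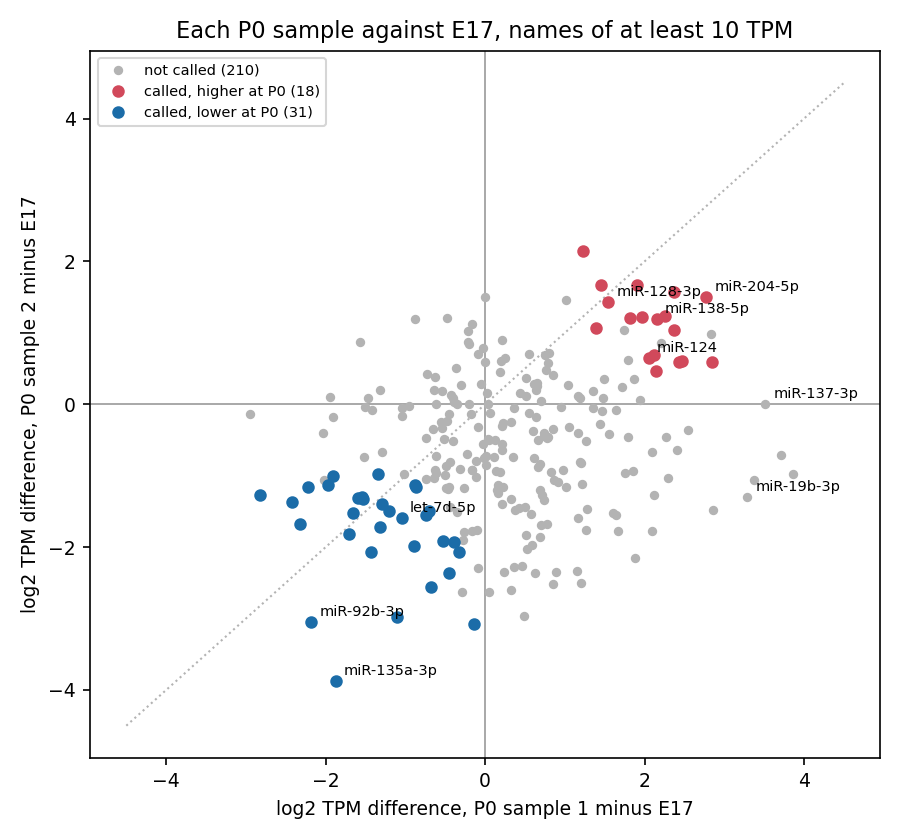
Difference in log2 TPM between P0 sample 1 and E17 (horizontal) and between P0 sample 2 and E17 (vertical) for the 259 names of at least 10 TPM, with the dotted line at equal differences. The 18 names called higher lie in the upper right and the 31 called lower in the lower left, while miR-137-3p and miR-19b-3p lie far to the right with no such difference in P0 sample 2.

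Of the 8 fixed miRNAs known from neurons, 4 were called higher at P0 and 1 lower, while 6.95% and 12% of all names were, and the median difference of the 8 was 1.42. Without run 1 of P0 sample 1 the same 5 were called, and the median was 1.06, where 18 of all 259 names were called higher and 54 lower. With P0 sample 1 alone the median was 1.80 and 5 were called higher, and with P0 sample 2 alone it was 0.32 and 3 were, 1 being lower in each case, while the medians of all names were 0.21 and -0.63. Of all 259 names, 57 were called higher and 34 lower with P0 sample 1 alone, and 17 higher and 87 lower with P0 sample 2 alone. The 8 together reached 95775 and 91863 TPM in the runs of E17 and from 104953 to 229993 TPM in the P0 libraries. miR-124, the most abundant neuronal miRNA of the brain, had 23846 and 30521 TPM in the runs of E17, 64633 and 160635 in P0 sample 1, and 39726 and 45393 in P0 sample 2. All 4 P0 libraries were above E17, by 1.35 ± 0.99 log2 units (SD of the P0 samples, n = 2), and P0 sample 1 was far above P0 sample 2. With P0 sample 2 alone, miR-124 was no longer called. miR-128-3p, which regulates excitability of neurons, was steadier between the P0 samples. It had 33197 and 13435 TPM in the runs of E17, 81634 and 54206 in P0 sample 1, and 82122 and 43825 in P0 sample 2. The difference was 1.49 ± 0.08 log2 units, or 2.80-fold, and at P3 its level was 115312 TPM.

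miR-138-5p, a miRNA of dendrites that limits spine size, was 3.18-fold higher at P0. Its levels were 99.5 and 96.4 TPM in the runs of E17, 484 and 394 in P0 sample 1, and 269.8 and 179 in P0 sample 2. The E17 runs were nearly equal, and every P0 library was above them. miR-132-3p, induced by neuronal activity and active in dendrite growth, had 7.88 and 2.89 TPM in the runs of E17, 38.2 and 21.00 in P0 sample 1, and 15.2 and 13.03 in P0 sample 2. It comes from the same locus as miR-212 (chromosome 10, 60521771 to 60522112), and miR-212-5p was called as well. That miRNA had 2.41 and 4.34 TPM in the runs of E17, 6.36 and 12.2 in P0 sample 1, and 24.3 and 12.6 in P0 sample 2. The differences were 1.75 ± 0.72 for miR-132-3p and 1.69 ± 0.65 log2 units for miR-212-5p. With identical tags only neither was called, and with only tags of the mature 5′ end miR-212-5p was not. The passenger arm miR-132-5p had a mean of 9.18 TPM, just below the level filter, with a difference of 2.04.

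The other neuronal miRNAs were not called higher. miR-137-3p, which acts in neuronal maturation, had 123 and 67.97 TPM in the runs of E17, 2043 and 156 in P0 sample 1, and 59.9 and 131 in P0 sample 2. Its mean difference of 1.76 ± 2.48 rested on run 1 of P0 sample 1, and run 1 of P0 sample 2 was below E17. miR-134-5p, which acts at dendritic spines, differed by 0.19 ± 1.42. The 2 arms of miR-9, a miRNA of neural progenitors, lay below E17 on average. miR-9a-3p was called, with 15016 and 4596 TPM in the runs of E17, 7702 and 2905 in P0 sample 1, and 3244 and 1732 in P0 sample 2, a difference of -1.43 ± 0.77, and with P0 sample 1 alone it was not called. For miR-9a-5p the direction was not the same in all runs, and the difference was -0.75 ± 0.94.

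**Figure D2:**
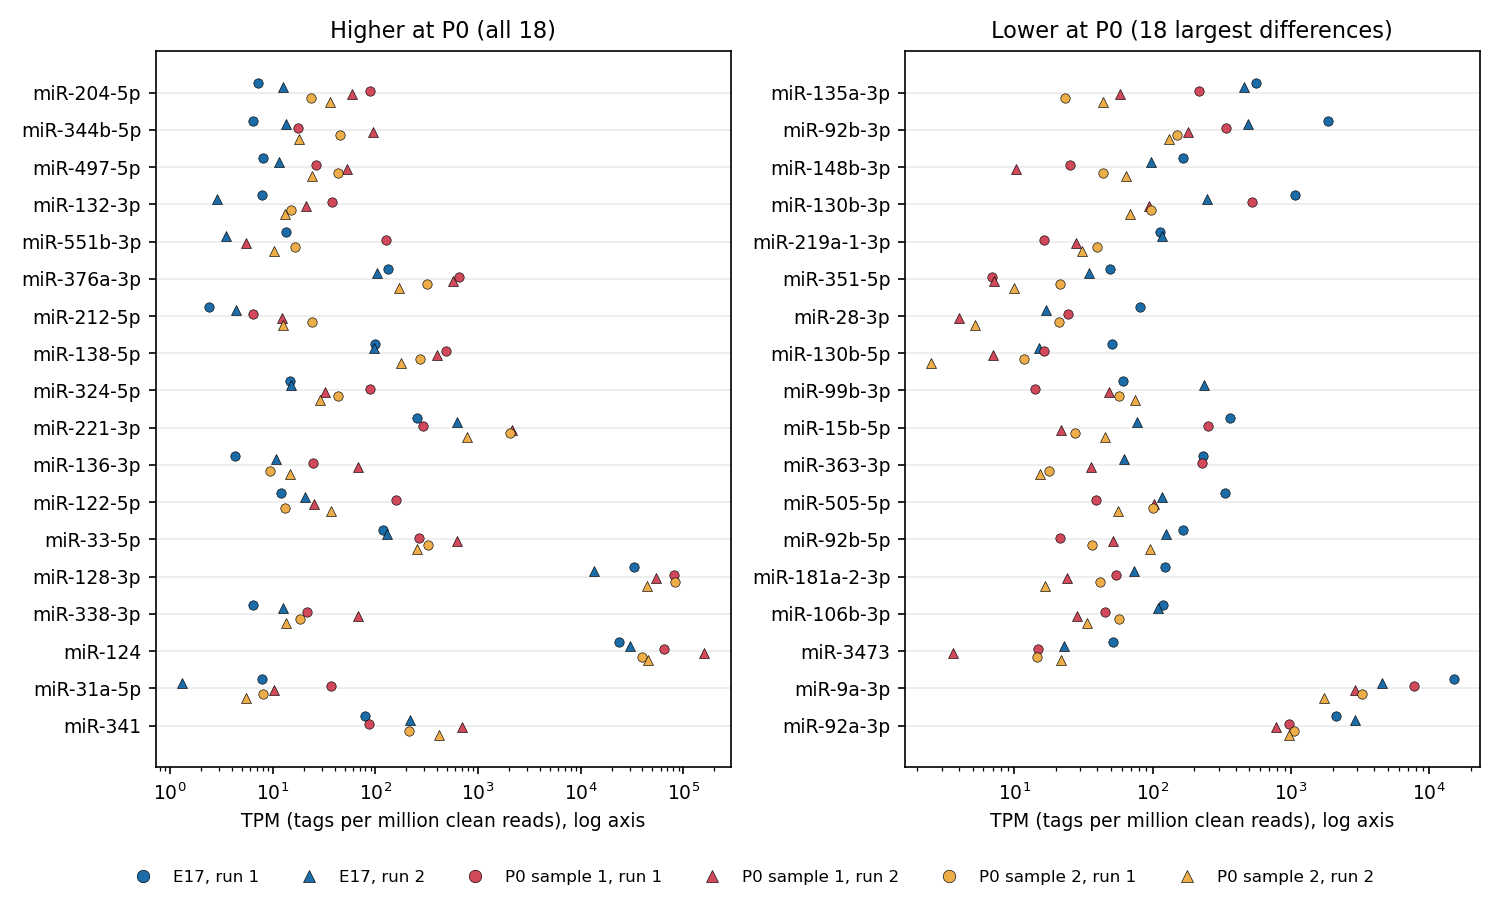
Level in TPM (horizontal, log axis) of each called miRNA in the 6 libraries, colored by tissue sample, with circles for run 1 and triangles for run 2. The left panel holds all 18 higher at P0 and the right panel the 18 largest differences below E17. The E17 points lie left of all P0 points for 12 of the 18 names on the left, miR-128-3p, miR-138-5p and miR-204-5p among them.

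Further miRNAs were higher at P0 at lower levels. miR-204-5p, abundant in choroid plexus and pigmented epithelia, had the largest called difference above E17, 2.14 ± 0.90 log2 units. Its levels were 7.23 and 12.5 TPM in the runs of E17, 87.8 and 58.8 in P0 sample 1, and 23.5 and 36.2 in P0 sample 2. The other arm, miR-204-3p, had a mean of 7.84 TPM and a difference of 2.61. Of the other members of the list for choroid plexus and ciliated cells, miR-34c-5p reached 127 TPM at E17 and 180.5 ± 158 at P0 (SD, n = 2), and miR-449a-5p and miR-34b-5p stayed at or below 21.2 TPM in every library. The part of such tissue in the miR-204 values was not tested. In tissue RNA of this kind, more cells of a type and more RNA per cell cannot be told apart.

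miR-33-5p, which lies in a gene of cholesterol control and targets cholesterol transporters, had 119 and 131 TPM in the runs of E17, 264 and 619 in P0 sample 1, and 329 and 253 in P0 sample 2. Both E17 runs were below every P0 library, and the difference was 1.51 ± 0.42. miR-344b-5p, from a rodent cluster of 3 gene copies, had 6.46 and 13.6 TPM in the runs of E17, 17.6 and 94.4 in P0 sample 1, and 45.6 and 17.97 in P0 sample 2. Its difference was 1.97 ± 0.56, and that of miR-344b-3p was 0.91. miR-497-5p, of the miR-15/16 seed family, had 8.10 and 11.5 TPM in the runs of E17, 26.5 and 52.3 in P0 sample 1, and 42.99 and 24.1 in P0 sample 2. The P0 samples were close to each other, the difference being 1.79 ± 0.16, and the neighbouring miR-195-5p differed by 0.79 without being called.

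miR-221-3p, a regulator of cell cycle inhibitors, was called with overlapping libraries. It had 256 and 622 TPM in the runs of E17, 288 and 2128 in P0 sample 1, and 2030.01 and 781 in P0 sample 2. Its neighbour and seed partner miR-222-3p (chromosome X, 6022642 to 6023268) differed by 1.39 and was not called. Both were called without run 1 of P0 sample 1, and with TMM factors the call of miR-221-3p was lost. miR-324-5p, which targets the Hedgehog pathway, had 14.6 and 15.2 TPM in the runs of E17, 89.5 and 32.2 in P0 sample 1, and 43.5 and 28.9 in P0 sample 2, and its difference was 1.59 ± 0.52. miR-376a-3p had 131 and 104 TPM in the runs of E17, 653 and 571 in P0 sample 1, and 319.9 and 169 in P0 sample 2, a difference of 1.71 ± 0.93. It belongs to the imprinted Dlk1-Dio3 region, as do miR-136-3p and miR-341, whose differences were 1.54 ± 1.31 and 1.23 ± 0.22. miR-31a-5p was also called, at a difference of 1.31 ± 1.19 and no more than 37.3 TPM in any library. With P0 sample 2 alone neither miR-136-3p, at 0.61, nor miR-31a-5p, at 0.46, was called.

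Further calls also depended on 1 library or sample. miR-551b-3p had 13.4 and 3.47 TPM in the runs of E17, 128 and 5.45 in P0 sample 1, and 16.3 and 10.2 in P0 sample 2. Its call was lost without run 1 of P0 sample 1, as was that of miR-122-5p, the miRNA of hepatocytes, which had 11.9 and 20.5 TPM in the runs of E17, 159 and 25.1 in P0 sample 1, and 13.1 and 36.95 in P0 sample 2. miR-338-3p, a miRNA of oligodendrocyte differentiation, had 6.35 and 12.5 TPM in the runs of E17, 21.7 and 67.03 in P0 sample 1, and 18.4 and 13.3 in P0 sample 2, and the highest value was that of run 2 of P0 sample 1. Its call was lost with P0 sample 2 alone. Its partner in that lineage, miR-219a-2-3p, differed by -0.59 ± 2.47 without a call.

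Among the miRNAs lower at P0, the family with the seed AUUGCAC had 3 called members of 4, where 12% of all names were called lower. Seed families were taken only from names already called. This family and the one with the seed CAGUGCA were chosen after their values were seen, so the share of all names is no test of them. All 4 members of at least 10 TPM were lower on average, with a median of -1.57. The rule called the same 3 without run 1 of P0 sample 1, where 54 of all 259 names were called lower. With identical tags only, miR-92a-3p and miR-363-3p were not called. miR-363-3p was also not called with only tags of the mature 5′ end. miR-92b-3p, a miRNA of neural progenitors, had 1866 and 488 TPM in the runs of E17, 337 and 181 in P0 sample 1, and 150.03 and 132 in P0 sample 2. Both E17 runs were above every P0 library, and the difference of -2.62 ± 0.62 amounted to 6.13-fold. miR-92a-3p, from the miR-17-92 cluster and its X-linked paralog, had 2103 and 2916 TPM in the runs of E17, 962 and 775 in P0 sample 1, and 1047 and 963 in P0 sample 2. The P0 samples were close, and the difference was -1.42 ± 0.15. miR-363-3p, from the same X-linked cluster, had 231.5 and 61.9 TPM in the runs of E17, 229 and 36.2 in P0 sample 1, and 17.7 and 15.3 in P0 sample 2. In run 1 the levels of E17 and P0 sample 1 were nearly equal, so its difference of -1.61 had an SD of 2.07, and with P0 sample 1 alone it was not called. miR-25-3p had 285 and 2131 TPM in the runs of E17, 87.8 and 506 in P0 sample 1, and 568 and 589 in P0 sample 2. Run 1 of E17 was below P0 sample 2, and miR-25-3p was not called at -1.54 ± 0.68.

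A fixed list of miRNAs linked to proliferation held members of the miR-17-92 and miR-106b-25 clusters with miR-92b and the miR-130/301 family, which are encoded elsewhere, and it did not hold miR-363-3p. Its members differed among themselves. Of 12 of at least 10 TPM, 3 were called lower (miR-92a-3p, miR-92b-3p and miR-130b-3p) and none higher, where 12% of all names were called lower, and 10 were below E17 on average, with a median of -0.70. Without run 1 of P0 sample 1 the rule called 6 of the 12 lower, against 54 of all 259 names, and the median was -1.26. With P0 sample 1 alone the median was 0.01 and 4 were called lower, against 34 of the 259 and a median of 0.21 for all names. With P0 sample 2 alone the median was -1.36 and 9 were called lower, against 87 of the 259 and a median of -0.63 for all names. miR-17-5p was listed at 654 TPM at E17, 943 in P0 sample 1 and 159.6 in P0 sample 2. The P0 samples thus lay on either side of E17. miR-93-5p lay below E17 in all 4 within-run differences, with a mean difference of -0.72 ± 0.64, less than the size required. miR-130a-3p differed by -0.69 ± 1.81 and was not called. miR-19b-3p had 39.4 and 56.1 TPM in the runs of E17, 905 and 46.2 in P0 sample 1, and 7.02 and 30.5 in P0 sample 2, where only run 1 of P0 sample 1 was above the E17 library of the same run.

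Other differences below E17 lay outside this family. miR-135a-3p, whose sister arm miR-135a-5p targets the Wnt and serotonin pathways, had the largest of the called differences below E17, -2.87 ± 1.42, which is 7.33-fold. It had 560.2 and 455 TPM in the runs of E17, 217 and 58.1 in P0 sample 1, and 23.3 and 44.04 in P0 sample 2. Every P0 library was below E17, although the P0 samples differed from each other. The 5p arm differed by -0.59 without a call. miR-219a-1-3p was among the most regular, with 113 and 118 TPM in the runs of E17, 16.3 and 28.00 in P0 sample 1, and 39.97 and 30.7 in P0 sample 2. The difference was -2.002 ± 0.46. miR-130b-3p, which shares its seed with miR-301b-3p, had 1073 and 246 TPM in the runs of E17, 520.4 and 94.02 in P0 sample 1, and 97.3 and 68.7 in P0 sample 2. Run 1 of P0 sample 1 was above run 2 of E17, and the difference was -2.04 ± 1.33.

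In the family with the seed CAGUGCA, 2 of 3 members were called lower (12% of all names were called lower). Both were also called lower without run 1 of P0 sample 1, where 54 of all 259 names were. miR-148b-3p had 167 and 98.04 TPM in the runs of E17, 25.4 and 10.2 in P0 sample 1, and 44.1 and 64.3 in P0 sample 2, with a difference of -2.05 ± 1.10. miR-148a-3p, which targets a DNA methyltransferase, differed by -1.16 ± 0.26 and was not called with P0 sample 2 alone, with run 1 alone or with a pseudocount of 5 TPM. Neither was called with identical tags only. miR-152-3p differed by -1.54 without a call. miR-15b-5p, which acts on cyclins, had 363 and 77.00 TPM in the runs of E17, 253 and 21.9 in P0 sample 1, and 27.6 and 45.5 in P0 sample 2. Its difference was -1.62 ± 1.33, and it was not called with P0 sample 1 alone. It shares both its seed and its locus (chromosome 2, 155555197 to 155555405) with miR-16-5p. The latter had 3699.7 and 717 TPM in the runs of E17, 7728 and 439 in P0 sample 1, and 441 and 423 in P0 sample 2, without a common direction. The same seed belongs to miR-497-5p, described above as higher at P0, so called members of this family lay on both sides. The median of its 5 tested members was -0.21. It was -1.40 without run 1 of P0 sample 1, where miR-15b-5p, miR-16-5p and miR-322-5p were called lower and miR-497-5p higher. The median of all names in that setting was -0.41.

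Of 28 loci with neighbouring miRNAs, 14 held members on both sides of 0, 8 had all members below E17 and 6 had all above. The following 3 are among the 8, and were chosen after their values were seen. On chromosome 12 (22156652 to 22157123), all 5 tested products of the miR-106b, miR-93 and miR-25 hairpins were below E17, with a median of -1.34, and miR-106b-3p and miR-25-5p were called. The call of miR-25-5p was lost without run 1 of P0 sample 1, where the median of the 5 was -0.76, and with TMM factors. miR-106b-3p had 119 and 109 TPM in the runs of E17, 45.7 and 28.6 in P0 sample 1, and 57.03 and 33.7 in P0 sample 2. Both runs of E17 were above all P0 libraries. On chromosome X (137720952 to 137726219), the 9 tested products of the miR-322, miR-351, miR-450, miR-503 and miR-542 hairpins were all below E17, with a median of -0.93, and 3 were called (12% of all names were called lower). Without run 1 of P0 sample 1 the rule called 6 of the 9 lower, against 54 of all 259 names. Of the reads of miR-450a-5p and miR-450b-5p, 48.9% and 41.8% also fitted another name. Of these, miR-351-5p, which shares its seed with miR-125, had 49.5 and 34.8 TPM in the runs of E17, 6.94 and 7.13 in P0 sample 1, and 21.3 and 9.95 in P0 sample 2, a difference of -1.90 ± 0.74. miR-322-3p and miR-450b-3p differed by -1.22 ± 0.98 and -1.10 ± 0.56. Both calls were lost with P0 sample 1 alone, and that of miR-450b-3p also without run 1 of P0 sample 1. With identical tags only none of the 3 calls of this locus remained. On chromosome 1 (67350070 to 67350748), the 4 tested products of miR-99b, let-7e and miR-125a lay below E17, with a median of -0.96, and miR-99b-3p and let-7e-5p were called, of which miR-99b-3p alone remained without run 1 of P0 sample 1 and neither with TMM factors. miR-99b-3p had 61.5 and 236 TPM in the runs of E17, 14.2 and 48.3 in P0 sample 1, and 57.5 and 75.1 in P0 sample 2. In each run both P0 samples were below E17, though run 1 of E17 was below run 2 of P0 sample 2. The neighbours in the Dlk1-Dio3 region lay on both sides of 0, as described below.

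Of 60 hairpins with both arms at 10 TPM or more, the arms differed from E17 in the same direction in 48. In 20 of them at least 1 arm was called, and in 19 of these the other arm had the same sign. Both arms were called for 3 hairpins, all lower at P0: miR-92b, miR-130b and miR-708. For miR-708, the 5p arm had 3295 and 953 TPM in the runs of E17, 2813 and 568 in P0 sample 1, and 720.1 and 291 in P0 sample 2 and differed by -1.20 ± 1.23, and the 3p arm differed by -1.16 ± 1.09. Neither arm of miR-708 was called with P0 sample 1 alone. With TMM factors and with run 2 alone miR-92b-5p was not called, nor were miR-92b-5p and miR-130b-5p with identical tags only. The 5p arms of miR-130b and miR-92b differed by -1.75 ± 0.46 and -1.55 ± 0.59. The exception with opposite signs was miR-181a-2-3p at -1.52, which was called, and miR-181a-5p at 0.92. The sequence of miR-181a-5p is also that of the miR-181a-1 hairpin, so its reads cannot be assigned to either hairpin. The other arm of miR-181a-1, miR-181a-1-3p, differed by 0.48.

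Other names called lower covered a wide range of levels. miR-28-3p differed by -1.76 ± 0.07 log2 units, with the P0 samples nearly equal. miR-505-5p had 336 and 117 TPM in the runs of E17, 39.3 and 102 in P0 sample 1, and 101 and 56.5 in P0 sample 2, a difference of -1.59 ± 0.10. In run 2 alone P0 sample 1 differed from E17 by -0.19, and the call was lost without run 1 of P0 sample 1 and with TMM factors. miR-181a-2-3p, the passenger arm of miR-181a, had 124 and 73.9 TPM in the runs of E17, 54.1 and 23.96 in P0 sample 1, and 41.9 and 16.8 in P0 sample 2. All of its P0 libraries were below E17, and the difference was -1.52 ± 0.28. The remaining called names, miR-3473, miR-6324, miR-23a-3p, miR-23b-5p, miR-26b-5p and miR-30d, had differences between -1.45 and -1.01, and miR-23a-3p, miR-26b-5p and miR-30d were not called with P0 sample 1 alone. Nearest to the size threshold were let-7e-5p at -1.002, miR-26b-5p at -1.01 and miR-450b-3p at -1.10 inside it, and Candidate 82 at -0.99, miR-29c-3p at 0.98 and miR-3594-5p at -0.98 outside it.

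The fixed list of let-7, miR-125 and miR-99/100 summed to 540857 and 624803 TPM in the runs of E17 and to between 395637 and 661674 TPM in the P0 libraries. miR-99a had no sequence under its name and is not in these sums, nor are the tags of the miR-99b primer sequence given below. let-7c-5p was the most abundant name, with 240685 and 314494 TPM in the runs of E17, 183637 and 236281 in P0 sample 1, and 234274 and 353729 in P0 sample 2. E17 lay within the range of P0. let-7a-5p, let-7b-5p and let-7f-5p followed at E17, with differences of -0.10 ± 0.15, 0.07 ± 0.61 and 0.32 ± 0.19, and none was called. Their sequences differ by few bases, and a tag that fitted several names was counted for each. Among its 12 members above the level filter, 2 were called lower and none higher, near the 12% of all names called lower, with a median of -0.41. let-7d-5p had 77327 and 14178 TPM in the runs of E17, 31304 and 13039 in P0 sample 1, and 17358 and 12932 in P0 sample 2. Most of its difference of -1.32 ± 0.39 came from run 1, since the E17 level was much closer to P0 in run 2. let-7e-5p had 42039 and 20952 TPM in the runs of E17, 18813 and 15433 in P0 sample 1, and 11149 and 17742 in P0 sample 2. All P0 libraries were below E17, although let-7e-5p was not called with P0 sample 1 alone. Without run 1 of P0 sample 1 the calls of both let-7d-5p and let-7e-5p were lost, and the 1 member called there was miR-100-5p.

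Names among the 10 most abundant at E17 or P0 also included miR-124, miR-128-3p, miR-9a-5p and miR-103-3p, a miRNA of metabolic control, which differed by -0.18 ± 0.51. Of the reads of miR-103-3p, 54.7% also fitted another name. The tags of the primer sequence listed for miR-99b depended on the library more than on age. They had 82953 and 5217 TPM in the runs of E17, 122388 and 1709 in P0 sample 1, and 8794 and 2451 in P0 sample 2. That sequence is part of the miR-99a hairpin in RefSeq, and not of the miR-99b hairpin.

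**Figure D3:**
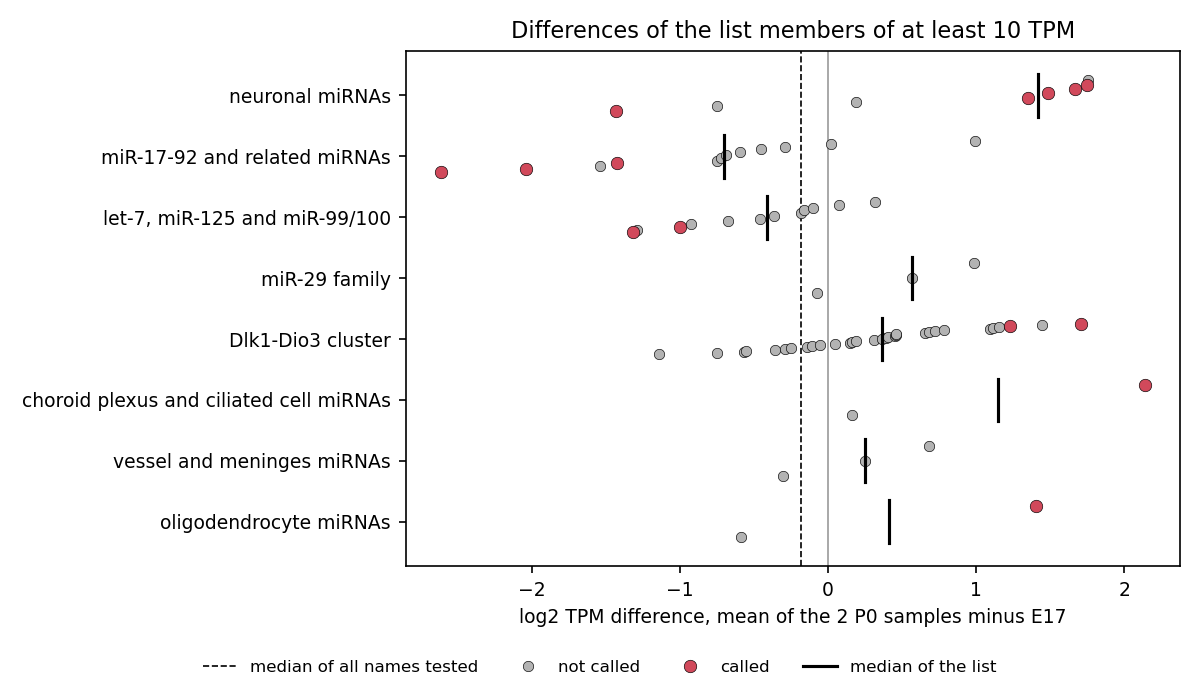
Difference in log2 TPM, mean of the P0 samples minus E17, of the members of at least 10 TPM of 8 fixed lists, with called members in red, a bar at the median of each list and a dashed line at the median of all 259 names (-0.18). The neuronal list has its median at 1.42 and the list of miR-17-92 and related miRNAs at -0.70.

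The Dlk1-Dio3 imprinted cluster, a large group of miRNAs expressed mainly in brain and placenta, had 31 tested members on its list. Of these, miR-376a-3p and miR-341 were called higher (6.95% of all names were) and none lower, and the same 2 were called without run 1 of P0 sample 1, where the median was 0.18 and 14 members were below E17. With identical tags only neither miR-341 nor miR-376a-3p was called, and 1 other member was called higher. miR-341 was also not called with TMM factors, with run 1 alone, or with only tags of the mature 5′ end. miR-136-3p, called higher above, lies in the region but was not on the list. Of the 31, 21 were above E17 on average, with a median of 0.37, but this turned with the P0 sample: with P0 sample 1 alone 13 members were called higher and the median was 1.06, and with P0 sample 2 alone 2 were called higher and 7 lower, with a median of -0.36. The medians of all names with P0 sample 1 alone and with P0 sample 2 alone were 0.21 and -0.63. Of all 259 names, 57 were called higher with P0 sample 1 alone, and 17 higher and 87 lower with P0 sample 2 alone. miR-127-3p, the most abundant, had 1401 and 1984 TPM in the runs of E17, 2124 and 1777 in P0 sample 1, and 3404 and 1751 in P0 sample 2. miR-411-5p was at 1308 TPM at E17, 3142 in P0 sample 1 and 385 in P0 sample 2. miR-433-3p and miR-323-3p differed by -0.29 ± 0.22 and 0.16 ± 0.88. The miR-29 family, which increases with maturation of the brain, had no called member. miR-29a-3p differed by -0.07 ± 1.54, miR-29b-3p by 0.57 ± 1.39, and miR-29c-3p had 39.5 and 30.6 TPM in the runs of E17, 178 and 58.3 in P0 sample 1, and 44.9 and 38.7 in P0 sample 2.

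Markers of other cell types were summed as lists. The vessel and meninges list summed to 546 and 619 TPM at E17 and to between 252 and 1047 TPM in the P0 libraries, and none of its 3 tested members was called. miR-143-3p differed by 0.25 ± 0.84, and miR-199a-3p, a miRNA of mesenchyme, by -0.31 ± 0.44. The endothelial miR-126a-3p was at 16.98 TPM at E17 and 27.9 ± 3.09 at P0. The smooth muscle miR-145-5p stayed at or below 21.5 TPM. The red blood cell list summed to 73.8 and 49.96 TPM in the runs of E17 and to between 24.4 and 87.8 TPM at P0, with miR-451-5p at a difference of -0.05 ± 0.37 and miR-144-3p at no more than 6.07 TPM. The myeloid list summed to 207 and 120.2 TPM at E17 and to between 58.9 and 430.1 TPM at P0, with miR-146b-5p at 187 and 109 TPM of the E17 sums. Of the leukocyte miRNAs, miR-142-5p stayed at or below 16.2 TPM, miR-142-3p at or below 1.16 and miR-146a-5p at or below 27.5. Of the muscle list, miR-133a-3p and miR-133b-3p were at 0 in all 6 libraries, miR-1-3p was at or below 5.57 TPM, and miR-206-3p differed by 0.09 ± 0.09. The choroid plexus and ciliated cell list summed to 33.9 and 257 TPM at E17 and to between 113 and 430.1 TPM at P0.

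Of the candidate miRNAs without a RefSeq name, 3 passed the level filter and none was called. Another 3 candidates matched a RefSeq miRNA, among them miR-3099 (Candidate 55), which differed by -0.40 ± 0.22 and was not called. Candidate 11, the most abundant, had 868 and 803 TPM in the runs of E17, 859 and 1126 in P0 sample 1, and 1224 and 1394 in P0 sample 2. Its difference of 0.45 ± 0.28 was below the size required, and its level at P3 was 2212 TPM. Candidate 5 had 33.2 and 5.28 TPM in the runs of E17, 20.96 and 10.1 in P0 sample 1, and 1.95 and 2.58 in P0 sample 2, with run 1 of E17 and of P0 sample 1 the highest. Candidate 10 was at 0.657 and 0.362 TPM at E17, 0.578 and 0.740 in P0 sample 1 and 7.02 and 5.01 in P0 sample 2, so that its difference lay in P0 sample 2. Candidate 7 was at 4.38 and 1.45 TPM at E17 and at or below 0.358 in each P0 library. Candidates 2 and 3 fitted the same tags, at 4.83 TPM at E17 and 3.89 ± 4.63 at P0. Candidates 1, 4, 6, 8 and 9 stayed below 10 TPM in every library. miR-672-5p was below E17 in all 4 within-run differences, with a mean difference of -0.46 ± 0.48, and was not called.

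The lengths and ends of the tags were compared next. In each library 22 nt was the commonest length. Tags of 20 to 24 nt made up 77.8% and 76.3% of the reads in the runs of E17 and 74.2% to 79.6% of those of P0, apart from 64.8% in run 1 of P0 sample 1, so no difference beyond the spread at P0 was seen. Among 186 names with at least 100 reads in every library, the mean tag length differed in the same direction within runs for 17 (9.14%), shorter at P0 for 14 of them. The largest of these differences was that of miR-409a-3p, with mean lengths in nt of 20.96 and 18.7 in the runs of E17, 19.03 and 18.7 in P0 sample 1, and 18.8 and 18.5 in P0 sample 2. In run 2 its lengths were nearly equal between the stages. For 37 names (19.9%) the share of tags with the annotated 5′ end, which sets the seed, differed in the same direction within runs, 20 higher and 17 lower at P0. In miR-137-3p this share was 70.8% and 78.7% in the runs of E17, 68.2% and 72.7% in P0 sample 1, and 65.5% and 72.1% in P0 sample 2. Most of the other miR-137-3p tags started 1 base further in, 21.5% and 15.6% at E17 and 18.4% to 26.9% at P0. In miR-30a-3p the annotated start was used by a share of 73.8% and 69.6% in the runs of E17, 84.01% and 81.4% in P0 sample 1, and 90.97% and 77.1% in P0 sample 2, and was the more frequent at P0. For miR-181c-3p the 2 runs of E17 and of P0 sample 1 were far apart, with 26.1% and 79.2% in the runs of E17, 30.3% and 82.8% in P0 sample 1, and 76.6% and 83.7% in P0 sample 2. miR-30a-3p, miR-181c-3p and miR-409a-3p were chosen after their values were seen. miR-124 was found mainly as tags of 18 and 22 nt. Those of 18 nt were at 16390.2 and 11990.5 TPM at E17, 50638 and 34165 in P0 sample 1, and 16634 and 19170.2 in P0 sample 2. Those of 22 nt were at 3049 and 13002 TPM at E17, 1691 and 95574 in P0 sample 1, and 14292 and 16875 in P0 sample 2. Run 1 of P0 sample 1 was thus highest for the short form and lowest for the full form.

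**Figure D4:**
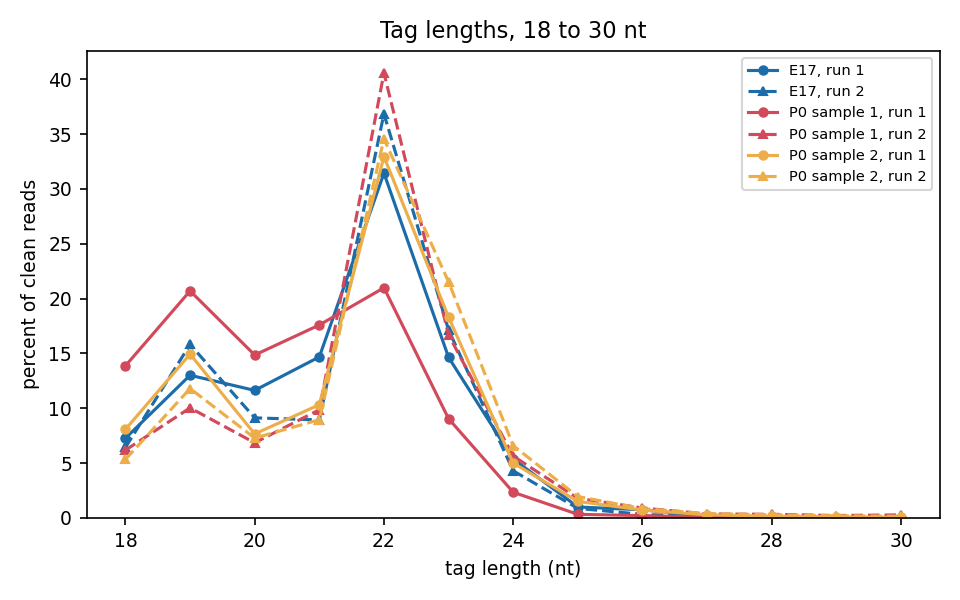
Percentage of the clean reads of a library (vertical) by tag length in nt (horizontal), solid lines and circles for run 1 and dashed lines and triangles for run 2. All 6 libraries peak at 22 nt, and run 1 of P0 sample 1 has a share of 34.6% at 18 and 19 nt.

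Over all small RNAs, 2486 tags had a mean of at least 10 TPM, and 430 of them were called by the same rule (17.3%), 195 higher (7.84%) and 235 lower (9.45%) at P0. Of the 1228 tags with a name, 238 were called (19.4%), 87 higher (7.08%) and 151 lower (12.3%). Of the 1258 tags that fitted no name, 192 were called (15.3%), 108 higher (8.59%) and 84 lower (6.68%). The unnamed tags summed to 48570.0 and 49466 TPM at E17 and to between 43644 and 66287 TPM in the P0 libraries. Unnamed tags ending in CCA, the letters that mature transfer RNAs carry at their 3′ end, numbered 81, of which 18 were called lower and 6 higher, with a median difference of -0.26. They summed to 8614 and 14518 TPM at E17, and to between 2104 and 9650.4 TPM at P0. A further 12 tags with that end had a name, 4 of them called higher and 2 lower, with a median of 0.34. One unnamed tag of 18 nt, shown as the most abundant of the 10 unnamed tags chosen by size of difference, was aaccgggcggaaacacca. It had 4414 and 2777 TPM in the runs of E17, 705 and 314 in P0 sample 1, and 2127 and 1201 in P0 sample 2. Its P0 levels were all below E17, although P0 sample 2 was far above P0 sample 1, with a difference of -1.96 ± 1.21. A second, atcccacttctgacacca, had 451 and 543 TPM in the runs of E17, 37.7 and 32.1 in P0 sample 1, and 284 and 106 in P0 sample 2, with a difference of -2.57 ± 1.73.

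Unnamed tags higher at P0 included 1 that began like miR-128-3p for 20 bases and then ended in another base, tcacagtgaaccggtctctta. It had 39.8 and 23.4 TPM in the runs of E17, 172 and 153 in P0 sample 1, and 172 and 117 in P0 sample 2, a difference of 2.24 ± 0.12, and thus lay on the same side as miR-128-3p itself. The others were 4 tags that shared no more than 8 bases with the start of a named miRNA. Of these, gcccggatagctcagtcggtag had 65.2 and 49.7 TPM in the runs of E17, 144 and 175 in P0 sample 1, and 119 and 111 in P0 sample 2, and agtggttaggattcggcgc had 189.9 and 98.8 TPM in the runs of E17, 452 and 129 in P0 sample 1, and 405 and 306 in P0 sample 2. Their differences were 1.22 ± 0.33 and 1.15 ± 0.21. The other 2 overlapped in sequence. The tag aggggtatgattctcgct had 89.6 and 54.3 TPM in the runs of E17, 194 and 151 in P0 sample 1, and 617 and 231 in P0 sample 2, and ggctcgttggtctaggggtatgattc had 0.110 and 29.6 TPM in the runs of E17, 0.145 and 79.3 in P0 sample 1, and 252 and 268 in P0 sample 2, so that the longer one was nearly missing from run 1 of E17 and of P0 sample 1. Lower at P0 were 3 tags that began like a known miRNA and ended otherwise, and they were abundant in run 1 only. The tag tctttggttatctagctgtatggaac, which follows miR-9a-5p for 22 bases, had 1106 and 14.5 TPM in the runs of E17, 176 and 6.53 in P0 sample 1, and 36.8 and 8.02 in P0 sample 2. The tags aacccgtagatccgatctttt and aacccgtagatccgatcttt, which follow the miR-99b primer sequence for 19 bases, had 851 and 1.37 TPM in the runs of E17, 291 and 0.337 in P0 sample 1, and 59.95 and 0.931 in P0 sample 2, and 460.1 and 0.795 TPM in the runs of E17, 221 and 0.404 in P0 sample 1, and 33.05 and 0.716 in P0 sample 2, respectively.

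A count test was run as well. edgeR's quasi-likelihood test on reads summed over runs, with Benjamini-Hochberg adjustment over 480 names, called none (0%), and 17 (3.54%) had an unadjusted p under 0.05. The lowest adjusted p was 0.990, so no name passed the threshold. With DESeq2 miR-3596a alone passed, at a log2 difference of 6.68. Both count tests also used tags seen in only 1 run, which the TPM values leave out. By TPM, miR-3596a was at 0 and 0 in the runs of E17, 0 and 0 in P0 sample 1, and 1.46 and 25.6 in P0 sample 2. Among the 17 with their edgeR log2 differences were miR-135a-3p at -2.65 ± 0.90 (SE), miR-92b-3p at -2.26 ± 0.89, miR-204-5p at 2.40 ± 0.96, miR-132-3p at 2.20 ± 0.91 and miR-344b-5p at 2.31 ± 0.96. The spread in this test came from the P0 pair alone, with 1 residual degree of freedom, and E17 was assumed to vary in the same way. The biological coefficient of variation was 0.553. An exact permutation test over 1 sample against 2 cannot give a p below 0.333, so the called differences rest on direction and size.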

How the data were processed

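Small RNA libraries of rat cortex at E17 (1 tissue sample) and P0 (2 tissue samples) were analysed, each with 2 technical sequencing runs, summed or averaged so that n was 1 and 2. Reads of low quality, adaptor sequence and products of ligation were filtered out by the authors, who deposited a count for each distinct tag, neither normalized nor mapped. Total counts of 6916489 to 14858820 per library limit precision by counting error only. P-values of the main count test rest on the spread between the 2 P0 samples, and E17 was assumed to vary in the same way.

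TPM was the count of a tag over the library total. A tag was kept for names when seen in both runs of a sample, and counted for a mature sequence when identical over the common length, with its start no more than 3 nt from that of the mature form and its end at most 3 nt beyond. Tags that fitted several names (0.953% to 1.91% of reads) counted for each. Names came from RefSeq (692), candidate lists (98) and primer or nucleotide change lists (5).

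Names were called by direction and size (pseudocount 1 TPM, mean of at least 10 TPM). Counts summed over runs, with tags seen in only 1 run included, were tested with edgeR 4.0.16 (quasi-likelihood, TMM, R 4.3.3), and with DESeq2 1.42.0 as an alternative. Both steps were tested on simulated data. Named were the 10 highest names per stage, the 15 largest called differences each way, the 4 highest members of each of 12 lists, miRNAs the study describes around birth, and 5 unnamed tags each way. Other arms, neighbours, seed partners and the remaining called names were added after their values were seen. The members and lists were chosen with earlier results of these data known. Alternatives changed scaling, pseudocount, filters, tag matching, runs and samples.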

Additional observations from a re-analysis of the deposited data

Results flagged for a closer look

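Among the 36 called names chosen by the naming rule and examined over the 4 P0 libraries, 7 had 1 library far from the other 3. Chance flags about 1 in 20 such groups, and technical runs of the same sample were among the 4. In run 1 of P0 sample 1, miR-551b-3p had 128 TPM, with 5.45 to 16.3 in the other libraries, and miR-122-5p had 159 TPM, with 13.1 to 36.95. The same library held 520 TPM of miR-130b-3p against 68.7 to 97.3, 253 TPM of miR-15b-5p against 21.9 to 45.5, and 229 TPM of miR-363-3p against 15.3 to 36.2. For miR-708-5p it had 2813 TPM against 291 to 720.1. In run 2 of P0 sample 1, miR-338-3p had 67.03 TPM, with 13.3 to 21.7 in the other libraries.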

How the results depend on the processing

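By direction and size, 49 names were called. The number was 78 with run 1 alone, 84 with run 2 alone, 29 with identical tags only, 77 at a mean of at least 1 TPM, 23 at 100 TPM, 72 without run 1 of P0 sample 1, and 91 to 104 when a P0 sample was left out. Of the 49 names, 21 were among the 29 called with identical tags only, where 136 names passed the level filter. Calls were made for 10 of the 49 names in all 11 alternatives that kept the level filter, and 46 kept their direction in them. miR-338-3p reversed with identical tags only, to -0.17. The number of all tags called by direction and size was 430, and 1550 at 1 TPM, 84 at 100 TPM, 739 without run 1 of P0 sample 1, and 717 to 994 when a P0 sample was left out.

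The count test called 0 names (17 at an unadjusted p under 0.05). It called 1 with DESeq2 size factors, 1 with DESeq2, 3 with no filter and 1 with run 2 alone. miR-3596a was in each of these. The numbers 1 and 2 that the libraries share are technical runs, so they pair no animals. With the 6 libraries as units and the run number as a replicate block, 0 names passed (50 at an unadjusted p under 0.05). The cause of these changes was not tested. Since E17 had 1 sample, no test of its own spread was possible.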
